A study of Homo sapiens with 15 samples.

Results

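In MDA-MB-468 breast cancer cells kept in EGF, erlotinib lowered the RNA of 14 of 16 glycolytic enzymes tested. It also lowered 12 of 13 HIF-response genes, beside 21.2% of all genes. Of 35 other glycolysis and pyruvate genes tested, 6 were higher and 8 lower with erlotinib. Of 35 other HIF pathway and hypoxia genes, 5 were higher and 19 lower. The peptide cSNX1.3 raised 15 of the 41 listed genes tested, beside 3.38% of all genes. The rate-setting regulator PFKFB3 was the most raised among those that passed the test. In cells whose EGFR was replaced by a form with a mutated nuclear localization signal, the genes split. Of the 41 tested, 8 were called higher and 14 lower, beside 20.4% and 21.0% of all genes. LDHA, EGLN3 and, on few reads, SLC2A3 were among the lower, and PFKP, VEGFA and CA9 among the higher. The 42 genes described here were taken by symbol, as a list of glycolysis and hypoxia-response genes, and each matched 1 Ensembl identifier of the 61552 in the count table. The list was chosen with earlier results of these data known, so its shares beside those of all genes are a description only. The 42 genes comprise 17 glycolytic enzymes, 2 PFKFB enzymes, 4 glucose and lactate transporters, 4 pyruvate dehydrogenase kinases, 13 HIF-response genes and the 2 HIF alpha subunits HIF1A and EPAS1.

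MDA-MB-468 is an established human line from a triple-negative breast cancer with very high EGFR. Bulk polyA RNA-seq was made from 15 libraries in 5 groups of 3. In the drug experiment, cells were serum starved for 12 h, given EGF at 10 ng/mL, and left with EGF alone (EGF) or with EGF plus the peptide cSNX1.3 at 10 μM (cSNX) or EGF plus the EGFR kinase inhibitor erlotinib at 15 μM (ERL) for 12 h. In the line experiment, an IPTG-inducible shRNA against the 3′ end of the EGFR message, induced by 1 mM IPTG for 2 days and kept in IPTG, was used to knock down the cells' own EGFR, and EGFR fused to GFP was put back either as wild type (shEGFR-WT) or with 2 arginines and 1 lysine of its nuclear localization signal changed to aspartic acid (shEGFR-NLS). Both lines were treated with EGF, at a dose and time not given in the sources used here. All 5 groups therefore carried EGF, and no library with a control peptide, a vehicle or no EGF was analysed here. cSNX1.3 is a peptide that interferes with the binding of EGFR to sorting nexin 1 and so with the route of EGFR to the nucleus. Whether each line was a single clone, and whether replicates were separate cultures, is not given in the sources used here, so p-values measure the spread between these libraries, which may be technical.

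Glycolysis splits glucose into pyruvate in a chain of enzymes, and lactate dehydrogenase then turns pyruvate into lactate, which leaves the cell through monocarboxylate transporters. The hypoxia-inducible factors pair an alpha subunit, HIF1A or EPAS1, with a constant beta subunit; prolyl hydroxylases (the EGLN enzymes) mark the alpha subunits for destruction when oxygen is present, so that the alpha protein can change with no change of its RNA. Many glycolytic genes, and genes such as CA9, VEGFA and BNIP3, are well-known HIF targets that carry the letters ACGTG or GCGTG in their promoters. Growth factor signalling is also known to raise glycolytic genes at normal oxygen.

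Promoters are shown for 5 genes that stand for the different responses: LDHA, which fell under erlotinib and in the shEGFR-NLS line, PFKFB3, which had the largest called rise under cSNX, CA9 and BNIP3 as HIF-response genes, and PDK2, which moved the other way. Each window runs from 250 bases before to 50 bases after an annotated start, from RefSeq on GRCh38.p14, 5′ to 3′ on the gene's own strand, in lower case with every match to ACGTG or GCGTG on either strand in capitals, so that CACGT and CACGC in the printed strand are matches on the other strand. LDHA and PFKFB3 had 2 windows each, PDK2 had 3, and CA9 and BNIP3 had 1 each. Where a gene had several windows, the one with most matches is shown. The window of LDHA is chr11:18394313-18394612 (plus strand), that of PFKFB3 chr10:6202682-6202981 (plus), that of CA9 chr9:35673678-35673977 (plus), that of BNIP3 chr10:131981874-131982173 (minus) and that of PDK2 chr17:50095101-50095400 (plus).
LDHA: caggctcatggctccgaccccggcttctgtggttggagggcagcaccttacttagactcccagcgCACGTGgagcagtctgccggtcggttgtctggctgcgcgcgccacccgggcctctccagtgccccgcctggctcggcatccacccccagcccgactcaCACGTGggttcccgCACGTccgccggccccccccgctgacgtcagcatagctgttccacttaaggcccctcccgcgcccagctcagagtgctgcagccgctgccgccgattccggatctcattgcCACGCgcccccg
PFKFB3: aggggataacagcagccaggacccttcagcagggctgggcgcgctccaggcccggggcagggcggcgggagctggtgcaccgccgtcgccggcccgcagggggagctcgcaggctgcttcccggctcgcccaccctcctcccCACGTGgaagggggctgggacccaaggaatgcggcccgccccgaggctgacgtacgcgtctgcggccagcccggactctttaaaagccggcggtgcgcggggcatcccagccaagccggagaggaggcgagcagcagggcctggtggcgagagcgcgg
CA9: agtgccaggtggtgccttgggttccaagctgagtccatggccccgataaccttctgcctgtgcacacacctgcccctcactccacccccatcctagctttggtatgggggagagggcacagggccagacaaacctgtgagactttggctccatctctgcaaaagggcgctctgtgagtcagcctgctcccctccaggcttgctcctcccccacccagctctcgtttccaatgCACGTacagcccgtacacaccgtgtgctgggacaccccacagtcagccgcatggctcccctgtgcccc
BNIP3: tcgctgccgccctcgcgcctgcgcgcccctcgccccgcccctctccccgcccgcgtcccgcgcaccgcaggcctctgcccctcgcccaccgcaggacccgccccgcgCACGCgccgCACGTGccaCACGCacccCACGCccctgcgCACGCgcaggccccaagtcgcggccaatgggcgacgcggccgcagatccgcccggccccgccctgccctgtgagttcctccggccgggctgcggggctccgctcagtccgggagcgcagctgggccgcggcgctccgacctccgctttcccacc
PDK2: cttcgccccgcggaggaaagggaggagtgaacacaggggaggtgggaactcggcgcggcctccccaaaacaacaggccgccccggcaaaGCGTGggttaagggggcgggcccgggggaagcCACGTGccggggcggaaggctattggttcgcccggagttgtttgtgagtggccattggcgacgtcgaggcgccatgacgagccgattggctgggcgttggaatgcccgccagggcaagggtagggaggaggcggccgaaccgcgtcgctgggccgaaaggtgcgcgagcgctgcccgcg

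A match says only that these letters occur in the window. The LDHA window held 6 matches, the BNIP3 window 6, the PDK2 window 3, the PFKFB3 window 2 and the CA9 window 1. The palindrome CACGTG, which is also the letters of an E-box, overlaps ACGTG on both strands and so counts as 2 matches; it occurred 2 times in LDHA, 1 time each in PFKFB3, BNIP3 and PDK2, and 0 times in CA9. Windows were found for 37 of the 42 genes, 66 windows in all. ACGTG was in 40.9% of these windows and in 21.4% of all 35116 RefSeq windows of the same length, and ACGTG or GCGTG was in 65.2% against 48.4%. Counted by gene, ACGTG was in a window of 11 of 17 glycolytic enzymes and of 7 of the 10 HIF-response genes with a window, against 24.9% of all genes. The 17 enzymes had 37 windows, against 35116 for all 27305 genes, so by gene they had more chances of a match. By window the shares were 40.5% for the enzymes and 70.0% for the HIF-response genes, against 21.4%. These shares are a description with no test. PDK2, which moved against the others, held the letters too, in the window shown but in neither of its other windows.

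The libraries held 22915676 to 35900649 counted read pairs. Levels are given as CPM, the counts divided by the library's total in units of 1e6 reads, scaled by TMM factors over all 15 libraries and listed in replicate order. A gene was called when edgeR's quasi-likelihood test gave a Benjamini-Hochberg adjusted p under 0.05 over all genes tested, and log2 fold changes carry their standard error (SE). The defining epithelial markers were abundant in every library (EPCAM 334.2 to 489.6 CPM, KRT8 2457.1 to 9199.7 CPM), PGR was at 0 CPM in all 15, ESR1 was at 2.79 to 8.41 CPM, and the T cell marker CD3E and the macrophage marker CD68 stayed at or under 0.0633 CPM. Of the fibroblast markers, COL1A2 stayed at or under 0.0661 CPM and PDGFRB at or under 0.356, but COL1A1 was at 8.25 to 21.3 CPM, and the leukocyte marker PTPRC reached 0.216. EGFR was at 4730.1 ± 359.5 CPM (SD, n = 3) in EGF, 6139.1 ± 371.3 in cSNX, 4704.1 ± 245.9 in ERL, 1339.3 ± 168.1 in shEGFR-WT and 1725.4 ± 33.6 in shEGFR-NLS, and was higher in shEGFR-NLS than in shEGFR-WT by 0.37 (log2, SE 0.09, adjusted p = 0.00367). With cSNX it differed from EGF by 0.38 (SE 0.11), which was not called (adjusted p = 0.0622). In the lines the counts cannot separate the restored EGFR from what is left of the cells' own. EGF replicate 2 gave the highest value of its group for 29 of the 42 genes, cSNX replicate 1 for 29 and shEGFR-NLS replicate 1 for 28, with TMM factors of 0.92 for EGF replicate 2 and 0.886 for cSNX replicate 1. The counts do not tell fewer expressing cells from less RNA per cell.

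Of the 42 genes, 41 passed the filter on low counts; ALDOC did not, at 2 to 10 reads per library. With erlotinib, 35 of the 41 were called, 33 lower and 2 higher, with a median log2 fold change of -0.87. Over all 15738 genes tested, 44.0% were called, 22.8% higher and 21.2% lower, with a median of 0.01. Of the 41 genes, 17 were called with an absolute log2 fold change over 1, which 11.3% of all genes were. With cSNX, 16 of the 41 were called, 15 higher and 1 lower, with a median of 0.23, against 6.07% of all genes called, 3.38% higher and 2.69% lower, with a median of 0.00; only PFKFB3 was called with a change over 1, as were 1.11% of all genes. In the shEGFR-NLS line, 22 of the 41 were called, 8 higher and 14 lower, with a median of -0.08; among all 15805 genes tested 41.4% were called, 20.4% higher and 21.0% lower, and 7.25% passed with a change over 1, as 2 of the 41 did. ERL and cSNX were set against the same 3 EGF libraries, so their values are given side by side and their difference is taken from the direct contrast of cSNX with ERL.

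**Figure D1:**
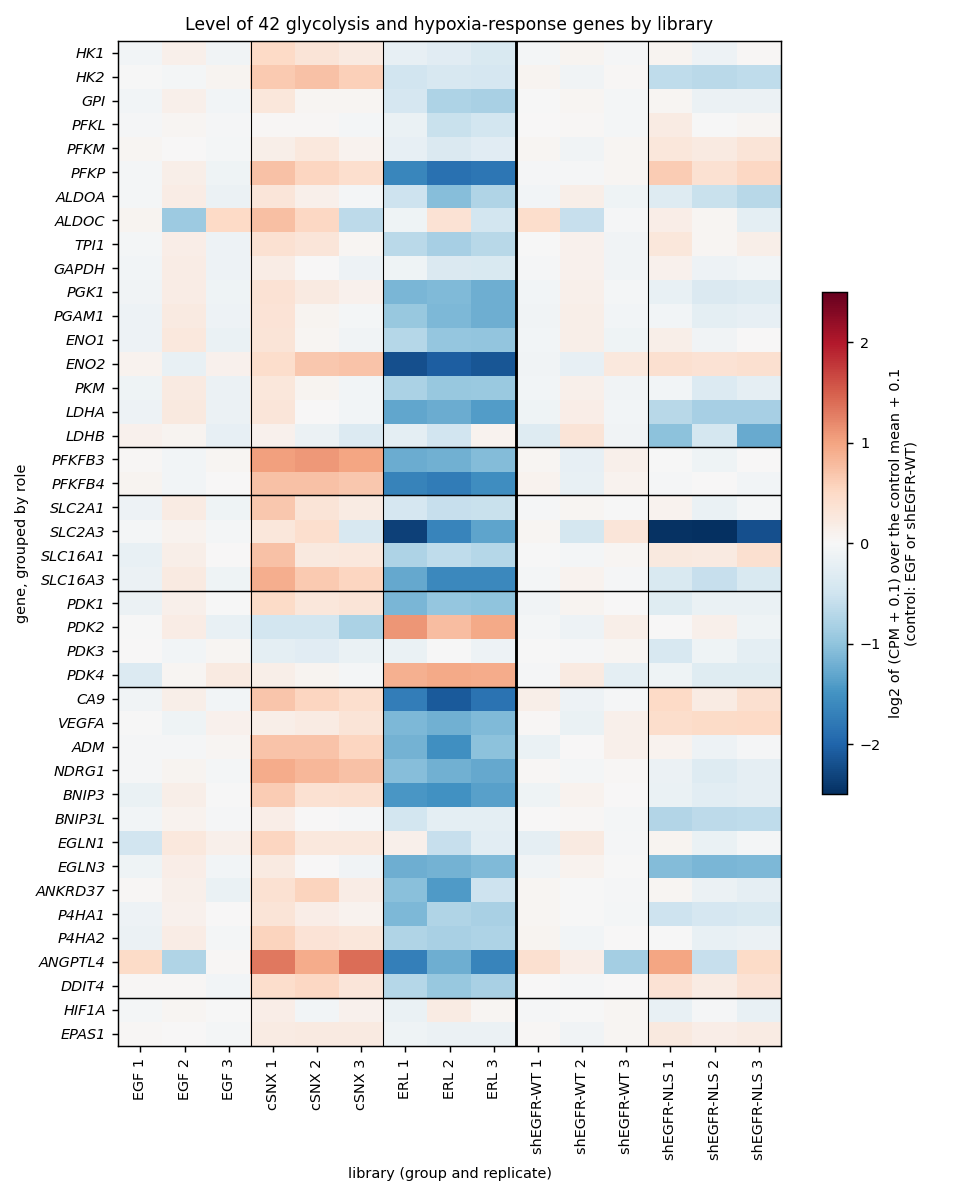
Level of each of the 42 genes (rows, by role) in each of the 15 libraries (columns), as the log2 of CPM over the mean of the control group of its experiment (EGF or shEGFR-WT) with 0.1 added to both; blue is lower, red higher, and colours end at 2.5. The ERL columns are blue for most rows with PDK2 and PDK4 red, the cSNX columns are red for PFKFB3, PFKFB4, NDRG1 and SLC16A3, and the shEGFR-NLS columns are mixed.

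Among the glycolytic enzymes, erlotinib lowered 14 of 16 tested, cSNX raised 4 and lowered 0, and the shEGFR-NLS line had 3 higher and 5 lower. Of all genes, 21.2% were lower with erlotinib, 3.38% higher with cSNX, and 20.4% higher and 21.0% lower in the line. The median log2 fold changes of the enzymes were -0.73, 0.14 and -0.05. The 2 enzymes not called with erlotinib were GAPDH (-0.27, SE 0.12, adjusted p = 0.0818) and LDHB (-0.18, SE 0.21, adjusted p = 0.501), both negative. GAPDH was called lower by DESeq2 (adjusted p = 0.0382), with no filter on low counts (0.0436), with all 15 libraries in 1 fit (0.0481) and without ERL replicate 1 (0.0413).

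The first steps trap glucose and commit it. HK2 (ENSG00000159399), the inducible hexokinase that phosphorylates glucose, was at 119, 116 and 126 CPM in EGF, 191, 200.5 and 181 in cSNX and 85.9, 90.7 and 89.4 in ERL. The 3 drug groups did not overlap: cSNX was highest and ERL lowest. HK2 was lower with erlotinib (-0.43, SE 0.08, adjusted p = 0.000586) and higher with cSNX (0.67, SE 0.08, adjusted p = 0.000138). In the lines it was at 122, 109.6 and 119 CPM in shEGFR-WT and 75.3, 73.1 and 75.2 in shEGFR-NLS, lower in every shEGFR-NLS library (-0.65, SE 0.07, adjusted p = 1.26e-06). HK1, the constitutive hexokinase, moved less, by -0.28 with erlotinib (adjusted p = 0.0242) and by 0.36 with cSNX (adjusted p = 0.0354). Neither HK1 call held when libraries were left out: the erlotinib call was lost without EGF replicate 2 (adjusted p = 0.0776), ERL replicate 2 (0.0533) or ERL replicate 3 (0.105) and with GC and length offsets (0.126), and the cSNX call without EGF replicate 1 (0.166), EGF replicate 3 (0.153), cSNX replicate 1 (0.103) or cSNX replicate 2 (0.104) and with only the 2 groups fitted (0.0588). GPI, which makes fructose 6-phosphate, was lower with erlotinib (-0.65, SE 0.12, adjusted p = 0.000313).

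Phosphofructokinase, the committing step, has 3 isoenzymes, and they moved unequally. PFKP (ENSG00000067057), the platelet form, was at 469, 537 and 455 CPM in EGF, 804, 702 and 649 in cSNX and 157, 134 and 138 in ERL. Every ERL library was under every EGF library, and every cSNX library over them. The fall with erlotinib was 3.38-fold (-1.76, SE 0.11, adjusted p = 4.42e-09) and the rise with cSNX 1.48-fold (0.56, SE 0.10, adjusted p = 0.00296). PFKP was far less abundant in the lines, at 117, 117 and 122 CPM in shEGFR-WT and 184, 154 and 169 in shEGFR-NLS, again without overlap and higher in shEGFR-NLS (0.51, SE 0.07, adjusted p = 3.56e-05). PFKL, the liver form, fell with erlotinib (-0.37, SE 0.10, adjusted p = 0.0072) and so did PFKM, the muscle form (-0.27, SE 0.09, adjusted p = 0.0302). PFKM was higher in the shEGFR-NLS line (0.28, SE 0.08, adjusted p = 0.0109). The erlotinib call of PFKM was lost without EGF replicate 1 (adjusted p = 0.106), EGF replicate 3 (0.0569), ERL replicate 2 (0.0731) or ERL replicate 3 (0.0758), with no filter on low counts (0.0608) and with GC and length offsets (0.0559), and its call in the line without shEGFR-NLS replicate 3 (0.0552).

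Exon length was the merged length of all annotated exons of a gene, not that of the transcripts expressed. Ranks and shares between genes depend on this choice. Per kb of exon, PFKP led the 3 isoenzymes in EGF (62.6 CPM per kb against 43.7 for PFKL and 3.96 for PFKM) and in cSNX (92.4 against 43.9 and 4.47). With erlotinib PFKL led (33.6 against 18.4 for PFKP), as it did in both lines (38.9 against 15.3 in shEGFR-WT). The PFKP share of the 3, which no scaling of the library changes, was 56.7% ± 1.43 (SD, n = 3) in EGF, 65.5% ± 1.98 in cSNX, 33.3% ± 1.10 in ERL, 26.8% ± 0.994 in shEGFR-WT and 32.8% ± 0.610 in shEGFR-NLS. These groups did not overlap within either experiment. A two-sided exact permutation test gave p = 0.1 for each of these 3 comparisons, the smallest that 3 libraries against 3 allow (adjusted p = 0.129 over the 18 shares compared). The shares were chosen after the values were seen.

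The middle of the pathway fell together with erlotinib. PGK1 (ENSG00000102144), which makes ATP from bisphosphoglycerate, was at 1405, 1709.8 and 1388 CPM in EGF, 1928, 1746 and 1609 in cSNX and 678, 698 and 644 in ERL. ERL lay under both other groups, which overlapped each other. PGK1 fell 2.21-fold with erlotinib (-1.14, SE 0.11, adjusted p = 5.96e-07), while its cSNX value of 0.23 was not called (adjusted p = 0.241). It was at 962, 1095 and 971 CPM in shEGFR-WT and 885, 787 and 802 in shEGFR-NLS, lower in every shEGFR-NLS library (log2 -0.29; adjusted p = 0.00812), a call lost without shEGFR-NLS replicate 3 (0.0531). PGAM1 (ENSG00000171314), phosphoglycerate mutase, was at 313, 400.3 and 311 CPM in EGF, 432, 357 and 328 in cSNX and 177, 157 and 146 in ERL. Its erlotinib fall was 2.12-fold (-1.08, SE 0.12, adjusted p = 2.96e-06), with every ERL library under the others. In the lines PGAM1 was at 323, 377 and 328 CPM (shEGFR-WT) and 327, 288 and 299 CPM (shEGFR-NLS), with overlap (-0.17, SE 0.08, adjusted p = 0.0972), and it was called lower there with GC and length offsets (-0.20, adjusted p = 0.0122). ALDOA (aldolase), TPI1 (triose phosphate isomerase) and PKM (pyruvate kinase) were also lower with erlotinib, at -0.75, -0.72 and -0.87 on the log2 scale. TPI1 was not called with cSNX or in the line, but was called higher with cSNX with GC and length offsets (0.27, adjusted p = 0.0389) and higher in the line without shEGFR-NLS replicate 2 (0.0444) or shEGFR-WT replicate 2 (0.0151). PKM, not called in the line (-0.21, SE 0.09, adjusted p = 0.0742), was called lower there by DESeq2 (0.0385), with no filter on low counts (0.0311), with GC and length offsets (0.0132) and without shEGFR-NLS replicate 1 (0.0356). ALDOA was lower in the shEGFR-NLS line (-0.51, SE 0.09, adjusted p = 0.000314); 54.2% of its exonic bases are shared with other annotated genes, so its level is uncertain.

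The 2 enolases, which make phosphoenolpyruvate, both fell with erlotinib, but by different amounts. ENO2 (ENSG00000111674), the neuronal form, was at 23.4, 19.3 and 23.7 CPM in EGF, 29.9, 35.2 and 36.1 in cSNX and 4.77, 5.19 and 4.97 in ERL. The 3 groups were apart, and ENO2 had the largest erlotinib fall of the enzymes, 4.42-fold (-2.14, SE 0.13, adjusted p = 3.8e-09), with a rise under cSNX (0.61, SE 0.12, adjusted p = 0.00371). In the lines it was at 12.5, 11.6 and 15.9 CPM in shEGFR-WT and 17.7, 17.1 and 17.5 in shEGFR-NLS, higher in each shEGFR-NLS library (0.38, SE 0.11, adjusted p = 0.01). ENO1, the main form at 3812 CPM in EGF, was lower with erlotinib (-0.87, adjusted p = 0.000115) and was not called in the other 2 comparisons.

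LDHA (ENSG00000134333), which turns pyruvate into lactate, was at 2356, 3029.9 and 2329 CPM in EGF, 3173, 2604 and 2461 in cSNX and 1051, 1089 and 973 in ERL. All ERL libraries lay under the other 6, and the EGF and cSNX libraries overlapped. The erlotinib fall was 2.46-fold (-1.30, SE 0.13, adjusted p = 7.86e-07). The cSNX value was 0.10 (95% interval -0.17 to 0.36) and was not called. LDHA was at 2792, 3341 and 2832 CPM in shEGFR-WT and 1841, 1671 and 1689.8 in shEGFR-NLS, 1.72-fold lower without overlap (-0.79, SE 0.09, adjusted p = 3.08e-06). LDHB, the form known for the reverse reaction, was scarce, at 0.853 to 3.20 CPM over all libraries; it was lower in the shEGFR-NLS line (-0.91, SE 0.26, adjusted p = 0.00881), on 24 to 87 reads per library, with 33.4% of its exonic bases shared with another annotated gene. Several glycolytic enzymes also have near-identical processed pseudogenes, between which reads could have been split.

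**Figure D2:**
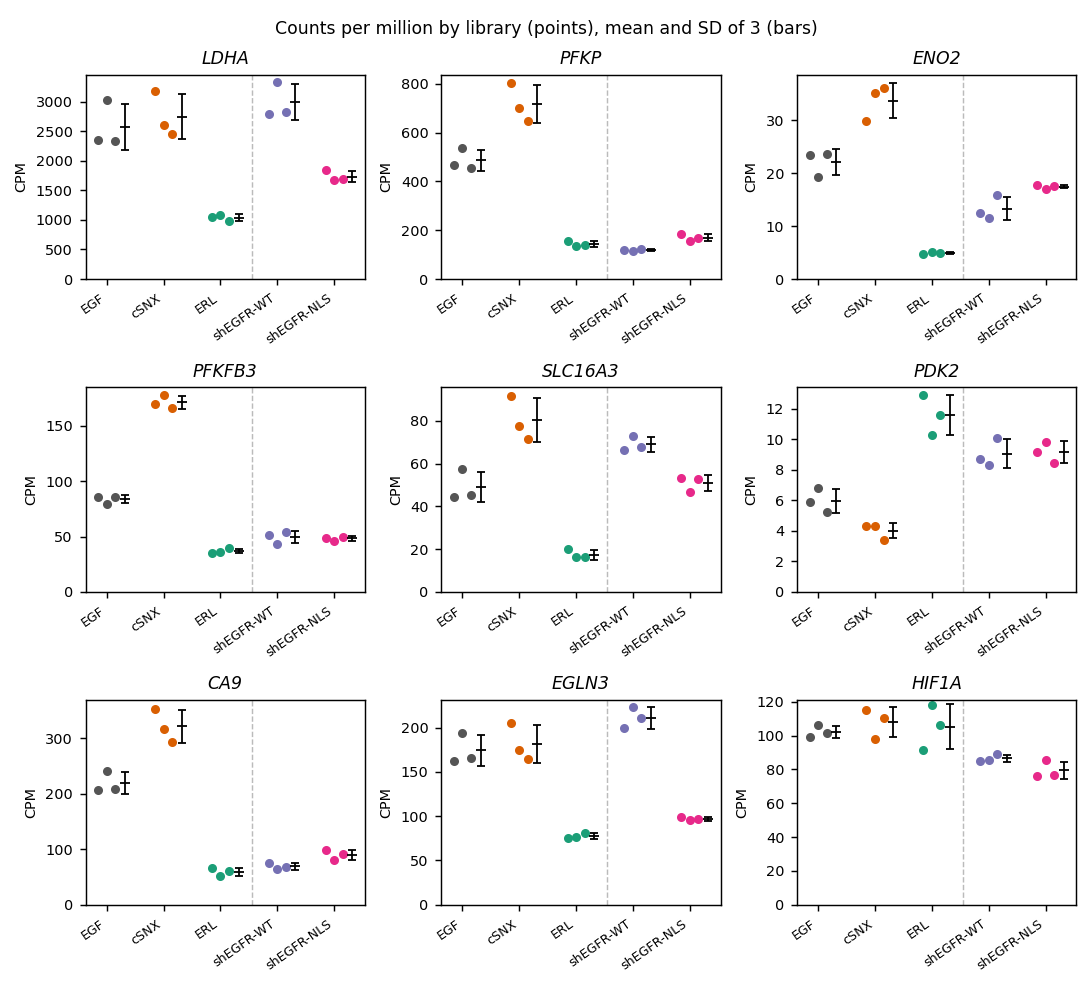
CPM of 9 genes in each library (points, 3 per group), with the mean and SD of each group beside them (bars); the dashed line parts the drug groups from the lines, and axes start at 0. LDHA and EGLN3 are low in ERL and in shEGFR-NLS, PFKFB3 is low in ERL and high in cSNX with both lines alike, PDK2 runs the other way, and the HIF1A groups of the drug experiment overlap.

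The PFKFB enzymes make and break fructose 2,6-bisphosphate, the strongest activator of phosphofructokinase. Both fell with erlotinib and rose with cSNX, and neither was called in the line. PFKFB3 (ENSG00000170525) was at 85.9, 79.3 and 86.0 CPM in EGF, 169.6, 178 and 166 in cSNX and 35.4, 36.2 and 39.2 in ERL. The groups were far apart: ERL was 2.25-fold under EGF (-1.17, SE 0.09, adjusted p = 3.72e-08) and cSNX 2.05-fold over it (1.03, SE 0.08, adjusted p = 2.44e-06). The lines overlapped, at 51.2, 43.1 and 53.7 CPM in shEGFR-WT and 49.1, 46.1 and 49.7 in shEGFR-NLS, with a difference of -0.03 whose 95% interval ran from -0.21 to 0.14. PFKFB4 (ENSG00000114268) was at 30.7, 27.9 and 29.4 CPM in EGF, 49.0, 48.5 and 47.1 in cSNX and 9.13, 8.71 and 9.98 in ERL. It too fell without overlap with erlotinib (-1.65, SE 0.10, adjusted p = 3.89e-09) and rose with cSNX (0.72, SE 0.09, adjusted p = 0.00018). The line libraries, at 17.3, 14.2 and 17.2 CPM and 15.9, 16.4 and 15.5 CPM, gave a difference of -0.03 (95% interval -0.23 to 0.18).

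All 4 transporters were lower with erlotinib, and 2 were higher with cSNX, beside 21.2% and 3.38% of all genes. SLC16A3 (ENSG00000141526), the lactate exporter MCT4, was at 44.5, 57.3 and 45.5 CPM in EGF, 91.8, 77.5 and 71.7 in cSNX and 20.1, 16.1 and 16.1 in ERL. No group overlapped another, with a 2.79-fold fall under erlotinib (-1.48, SE 0.12, adjusted p = 1.46e-07) and a 1.64-fold rise under cSNX (0.71, SE 0.12, adjusted p = 0.00128). In the line it fell, from 66.4, 72.9 and 67.7 CPM in shEGFR-WT to 53.3, 46.5 and 52.8 in shEGFR-NLS (-0.44, SE 0.08, adjusted p = 0.000224). SLC16A1, the monocarboxylate transporter MCT1, was lower with erlotinib (-0.71, SE 0.13, adjusted p = 0.000376) but higher in the shEGFR-NLS line (0.29, SE 0.08, adjusted p = 0.00576). That line call was lost without shEGFR-NLS replicate 3 (adjusted p = 0.0575); the cSNX value of 0.43 missed the threshold (adjusted p = 0.0535) and passed it by DESeq2 (0.0298), with no filter on low counts (0.00987), with all 15 libraries (0.0194), with GC and length offsets (0.0281), and without EGF replicate 2 (0.0312) or cSNX replicate 3 (0.0433). Per kb of exon, SLC16A3 held 51.7% ± 1.68 of the 2 transporters' signal in EGF, 38.4% ± 4.12 in ERL, 53.6% ± 1.95 in shEGFR-WT and 41.0% ± 1.79 in shEGFR-NLS (SD, n = 3).

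SLC2A1, the basal glucose transporter GLUT1, was at 388 ± 49.2 CPM (SD, n = 3) in EGF, 272 ± 17.0 in ERL and 516 ± 89.9 in cSNX, lower with erlotinib (-0.50, SE 0.12, adjusted p = 0.0029) and higher with cSNX (0.42, SE 0.12, adjusted p = 0.0484). The cSNX call was lost without EGF replicate 1 (adjusted p = 0.21), EGF replicate 3 (0.173), cSNX replicate 1 (0.151) or cSNX replicate 2 (0.0907), with DESeq2 size factors (0.0572), with only the 2 groups fitted (0.0977) and with GC and length offsets (0.0504). SLC2A3 (ENSG00000059804), the high-affinity transporter GLUT3, was rare: 0.821, 0.916 and 0.814 CPM in EGF, 1.05, 1.17 and 0.620 in cSNX and 0.0889, 0.204 and 0.282 in ERL. The ERL libraries were the lowest, on 3, 5 and 8 reads, and EGF and cSNX overlapped. The erlotinib change was -2.15, SE 0.44, adjusted p = 0.000993; the ratio of summed counts was 0.217 (exact 95% interval 0.117 to 0.38, counting error only). In the lines SLC2A3 was at 4.26, 3.0 and 5.12 CPM in shEGFR-WT and 0.663, 0.431 and 0.818 in shEGFR-NLS, the largest change of the 41 genes there (-2.71, SE 0.25, adjusted p = 3.66e-07). Every shEGFR-NLS library was under every shEGFR-WT library, on 23, 14 and 23 against 129, 95 and 185 reads.

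The pyruvate dehydrogenase kinases switch off the entry of pyruvate into the mitochondrial cycle, and here the 4 genes parted. PDK1 (ENSG00000152256), the HIF-induced form, was at 50.8, 61.6 and 56.1 CPM in EGF, 78.3, 68.7 and 70.7 in cSNX and 25.4, 28.6 and 27.8 in ERL. ERL was lowest and cSNX highest without overlap (-1.03, SE 0.10, adjusted p = 4.62e-07 with erlotinib, 0.37, SE 0.09, adjusted p = 0.0244 with cSNX). In the line it was at 53.4, 59.9 and 57.0 CPM in shEGFR-WT and 46.1, 50.8 and 50.9 in shEGFR-NLS (-0.20, SE 0.08, adjusted p = 0.0401). The cSNX call was lost without EGF replicate 1 (adjusted p = 0.163), EGF replicate 3 (0.0828) or any 1 of the cSNX replicates (0.0569 to 0.0768). The line call was lost without any 1 of the shEGFR-NLS replicates (0.0529 to 0.138), without shEGFR-WT replicate 2 (0.0748) or 3 (0.0844), with all 15 libraries (0.0724) and with GC and length offsets (0.169).

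PDK2 and PDK4 were the only 2 of the 41 genes called higher with erlotinib. PDK2, a widely expressed form, was at 5.91, 6.80 and 5.21 CPM in EGF, 4.30, 4.34 and 3.43 in cSNX and 12.9, 10.3 and 11.6 in ERL. The order was the reverse of PDK1: ERL was highest (0.97, SE 0.15, adjusted p = 6.45e-05) and cSNX lowest (-0.57, SE 0.16, adjusted p = 0.0411). The cSNX call of PDK2 was lost without EGF replicate 1 (adjusted p = 0.111) or 2 (0.133), without cSNX replicate 1 (0.0508), 2 (0.0787) or 3 (0.173) and with only the 2 groups fitted (0.0653). SAMD14, on the opposite strand, shares 38.6% of the exonic bases of PDK2, and the counting did not use strand. PDK4, known as a starvation-induced form, rose on 23 to 79 reads per library, from 0.944, 1.26 and 1.44 CPM in EGF to 2.34, 2.45 and 2.40 in ERL (0.98, SE 0.23, adjusted p = 0.00237). PDK3 was not called with either drug, other than lower with cSNX with GC and length offsets (-0.25, adjusted p = 0.024), and was lower in the line (-0.24, SE 0.08, adjusted p = 0.0279), a call lost without shEGFR-NLS replicate 1 (0.125) or 3 (0.0881) or shEGFR-WT replicate 1 (0.0561) or 3 (0.079).

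Per kb of exon, PDK1 made up 48.5% ± 2.16 of the signal of the 4 kinases in EGF, 59.9% ± 1.32 in cSNX and 26.4% ± 1.61 in ERL (SD, n = 3), and PDK2 14.0% ± 1.53, 9.02% ± 1.11 and 30.5% ± 3.57. In the lines the PDK1 share was 41.8% ± 1.17 in shEGFR-WT and 41.1% ± 1.44 in shEGFR-NLS, which overlapped. The drug groups did not overlap in either share, with p = 0.1 in the two-sided exact permutation test for each drug against EGF, again the smallest possible.

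**Figure D3:**
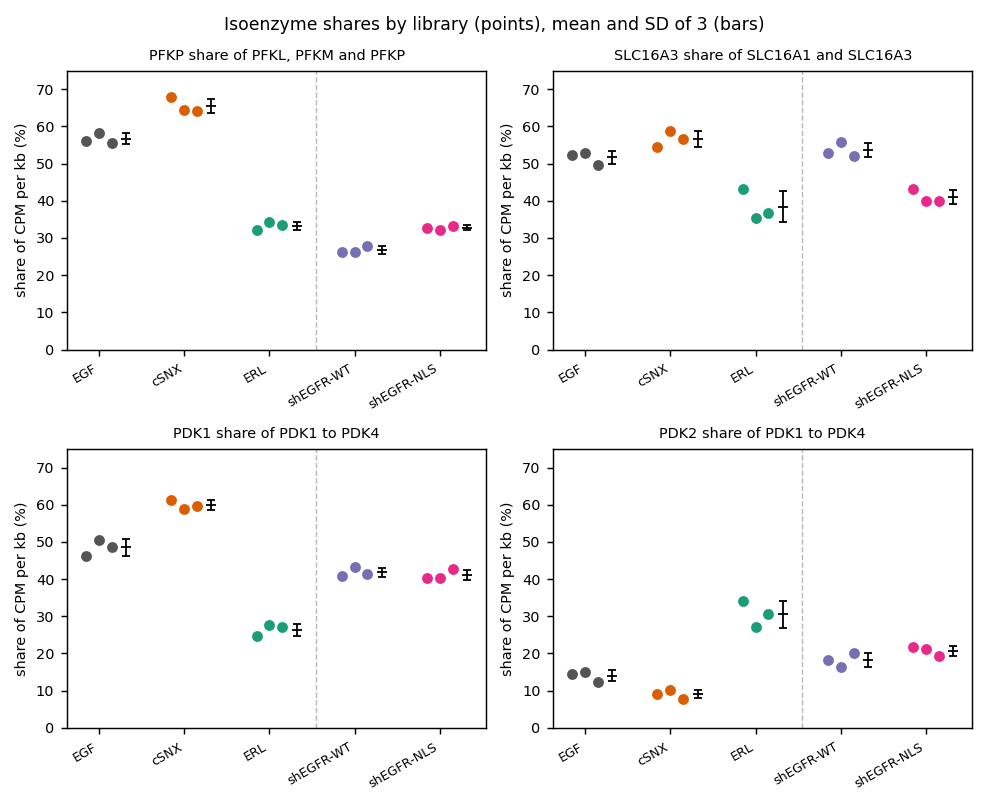
Share of CPM per kb of exon (y axis, %) held by PFKP, SLC16A3, PDK1 and PDK2 within their isoenzyme group, by library (points), with mean and SD of 3 (bars). PFKP and PDK1 take the largest shares in cSNX and fall in ERL, where PDK2 takes its largest; the dashed line parts the drug groups from the lines.

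Among the 13 HIF-response genes, erlotinib lowered 12 and raised 0, cSNX raised 6 and lowered 0, and the shEGFR-NLS line had 3 higher and 5 lower. Of all genes, 21.2% were lower with erlotinib, 3.38% higher with cSNX, and 20.4% higher and 21.0% lower in the line. The medians of the HIF-response genes were -1.13, 0.41 and -0.10, beside -0.73, 0.14 and -0.05 for the glycolytic enzymes. The median of the HIF-response genes was thus the larger in size in each comparison, though in the line both were close to the 0.01 of all genes. The difference between the 2 groups of genes was not tested.

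CA9 (ENSG00000107159), the carbonic anhydrase at the cell surface that is among the most used hypoxia markers, was at 207, 242 and 209 CPM in EGF, 354, 317 and 294 in cSNX and 65.8, 51.2 and 61.0 in ERL. The groups were apart, with a 3.67-fold fall under erlotinib (-1.87, SE 0.11, adjusted p = 2.77e-09) and a rise under cSNX (0.56, SE 0.10, adjusted p = 0.00338). In the lines it was at 76.1, 63.6 and 67.9 CPM in shEGFR-WT and 98.3, 80.2 and 91.9 in shEGFR-NLS, higher in the latter without overlap (0.38, SE 0.09, adjusted p = 0.00186). ARHGEF39, on the opposite strand, shares 35.7% of the exonic bases of CA9. VEGFA (ENSG00000112715), the angiogenic growth factor, was at 222, 209 and 241 CPM in EGF, 248, 258 and 279 in cSNX and 102, 97.7 and 105 in ERL. It fell 2.19-fold with erlotinib (-1.13, SE 0.09, adjusted p = 9.4e-08), and its cSNX value of 0.23 was not called (adjusted p = 0.164). In the lines VEGFA was higher in shEGFR-NLS, at 114, 117 and 119 CPM against 85.5, 74.5 and 91.9 in shEGFR-WT (0.48, SE 0.08, adjusted p = 0.000119).

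ADM (ENSG00000148926), the vasodilator peptide adrenomedullin, was at 19.0, 18.9 and 20.0 CPM in EGF, 31.8, 31.6 and 28.2 in cSNX and 8.47, 6.63 and 9.41 in ERL. It fell with erlotinib (-1.23, SE 0.12, adjusted p = 1.22e-06) and rose with cSNX (0.66, SE 0.12, adjusted p = 0.00237), all groups apart. The lines overlapped, at 12.9, 14.6 and 15.8 CPM and 15.5, 13.3 and 14.3 CPM, with a difference of -0.01 (95% interval -0.23 to 0.21). NDRG1 (ENSG00000104419), a stress-induced gene of the N-myc downstream family, was at 217, 231 and 214 CPM in EGF, 421, 394 and 365 in cSNX and 106, 95.9 and 90.8 in ERL. Its rise with cSNX was the largest called among the HIF-response genes (0.83, SE 0.09, adjusted p = 3.65e-05), and its erlotinib fall was 2.25-fold (-1.17, SE 0.09, adjusted p = 6.08e-08). In the line it was at 191, 183 and 192 CPM in shEGFR-WT and 171, 151 and 162 in shEGFR-NLS (-0.22, SE 0.07, adjusted p = 0.0143), a call lost without shEGFR-NLS replicate 2 (0.0674) or 3 (0.0632) or shEGFR-WT replicate 1 (0.0559).

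The mitophagy receptors behaved unequally. BNIP3 (ENSG00000176171) was at 99.2, 123 and 111 CPM in EGF, 173, 144 and 147 in cSNX and 40.4, 38.9 and 43.5 in ERL. The groups did not overlap (-1.43, SE 0.10, adjusted p = 2.14e-08 with erlotinib, 0.48, SE 0.10, adjusted p = 0.00634 with cSNX). It was at 56.5, 64.4 and 61.1 CPM in shEGFR-WT and 53.9, 50.2 and 51.6 in shEGFR-NLS (-0.22, SE 0.07, adjusted p = 0.0225). The cSNX call was lost without EGF replicate 1 (0.0553). The line call was lost without shEGFR-NLS replicate 2 (0.0754) or 3 (0.0858), without shEGFR-WT replicate 3 (0.0568) and with all 15 libraries (0.062). BNIP3L, its relative, moved by -0.30 with erlotinib (adjusted p = 0.0127, and 0.0517 without ERL replicate 1) and by more in the line (-0.67, SE 0.07, adjusted p = 7.29e-07).

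EGLN3 (ENSG00000129521), a prolyl hydroxylase that is itself a HIF target, was at 163, 194 and 166 CPM in EGF, 205, 175 and 164 in cSNX and 75.1, 76.8 and 81.1 in ERL. It was lower in every ERL library (-1.16, SE 0.10, adjusted p = 1.76e-07), and the cSNX value of 0.06 (95% interval -0.15 to 0.27) was not called. In the lines it was at 199, 224 and 211 CPM in shEGFR-WT and 99.3, 95.4 and 96.6 in shEGFR-NLS, 2.17-fold lower without overlap (-1.12, SE 0.07, adjusted p = 2.74e-09). EGLN1, the main prolyl hydroxylase, was called in none of the 3 comparisons by edgeR (unadjusted p of 0.33, 0.0768 and 0.692), and 55.8% of its exonic bases are shared with another annotated gene. DDIT4 (ENSG00000168209), the mTOR inhibitor REDD1, was at 806, 815 and 762 CPM in EGF, 1072, 1144 and 986 in cSNX and 485, 412 and 453 in ERL. The groups were apart (-0.81, SE 0.10, adjusted p = 8e-06 with erlotinib, 0.43, SE 0.10, adjusted p = 0.0138 with cSNX). It was higher in shEGFR-NLS, at 318, 287 and 321 CPM against 251, 244 and 251 in shEGFR-WT (0.31, SE 0.07, adjusted p = 0.00178). The cSNX call of DDIT4 was lost without EGF replicate 1 (0.0605) or 3 (0.0732) or cSNX replicate 2 (0.104).

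The collagen prolyl hydroxylase subunits P4HA1 and P4HA2 were both lower with erlotinib (-0.88, SE 0.11, adjusted p = 1.38e-05 and -0.77, SE 0.10, adjusted p = 1.56e-05). P4HA2 was higher with cSNX (0.41, SE 0.10, adjusted p = 0.0193), a call lost without EGF replicate 1 (0.133) or 3 (0.0893) or cSNX replicate 1 (0.0711) or 2 (0.0573), and with GC and length offsets (0.0601), and P4HA1 was lower in the line (-0.44, SE 0.08, adjusted p = 0.000332). ANKRD37, a small ankyrin-repeat HIF target, fell with erlotinib (-0.97, SE 0.24, adjusted p = 0.00373), with 40.3% of its exonic bases shared with UFSP2 on the opposite strand. ANGPTL4 (ENSG00000167772), an inhibitor of lipoprotein lipase, was near the limit of detection, at 12, 4 and 9 reads in EGF, 21, 17 and 28 in cSNX and 1, 2 and 1 in ERL, or 0.493, 0.153 and 0.333, 0.961, 0.709 and 1.02 and 0.0296, 0.0818 and 0.0353 CPM. It was called lower with erlotinib (-2.67, SE 0.69, adjusted p = 0.00511). The ratio of summed counts was 0.143 (exact 95% interval 0.0363 to 0.415, counting error only). The cSNX value of 1.46 was not called (adjusted p = 0.0551), and the lines overlapped, at 14, 12 and 5 reads in shEGFR-WT and 26, 6 and 14 in shEGFR-NLS, or 0.463, 0.380 and 0.138 CPM and 0.749, 0.185 and 0.498 CPM.

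Of the HIF alpha subunits, neither was called with either drug, and EPAS1 was called in the line. HIF1A (ENSG00000100644) was at 99.1, 106 and 101 CPM in EGF, 115, 98.0 and 110.2 in cSNX and 91.6, 118 and 106 in ERL, groups that overlapped. Its log2 differences were 0.05 with erlotinib (95% interval -0.16 to 0.26) and 0.08 with cSNX (95% interval -0.13 to 0.29), neither called, and the erlotinib value was -0.07 with GC and length offsets. In the lines it was at 85.0, 85.7 and 88.9 CPM in shEGFR-WT and 76.3, 85.3 and 76.4 in shEGFR-NLS, a difference of -0.12 (95% interval -0.27 to 0.02). EPAS1 (ENSG00000116016), which encodes the second HIF alpha subunit, was at 131, 128 and 124 CPM in EGF, 148, 149.6 and 149 in cSNX and 118, 115 and 115 in ERL. The groups did not overlap, yet neither difference from EGF was called (-0.13, SE 0.08, adjusted p = 0.182 with erlotinib, 0.22, SE 0.08, adjusted p = 0.108 with cSNX). DESeq2 (0.0376), all 15 libraries (0.0488) and GC and length offsets (0.0415) gave the cSNX value a p under the threshold. It was at 100.1, 92.1 and 102 CPM in shEGFR-WT and 117, 111 and 114 in shEGFR-NLS, higher in the latter (0.21, SE 0.07, adjusted p = 0.0181), a call lost without shEGFR-NLS replicate 3 (0.0684). RNA levels do not show the alpha proteins, whose stability was not measured here.

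**Figure D4:**
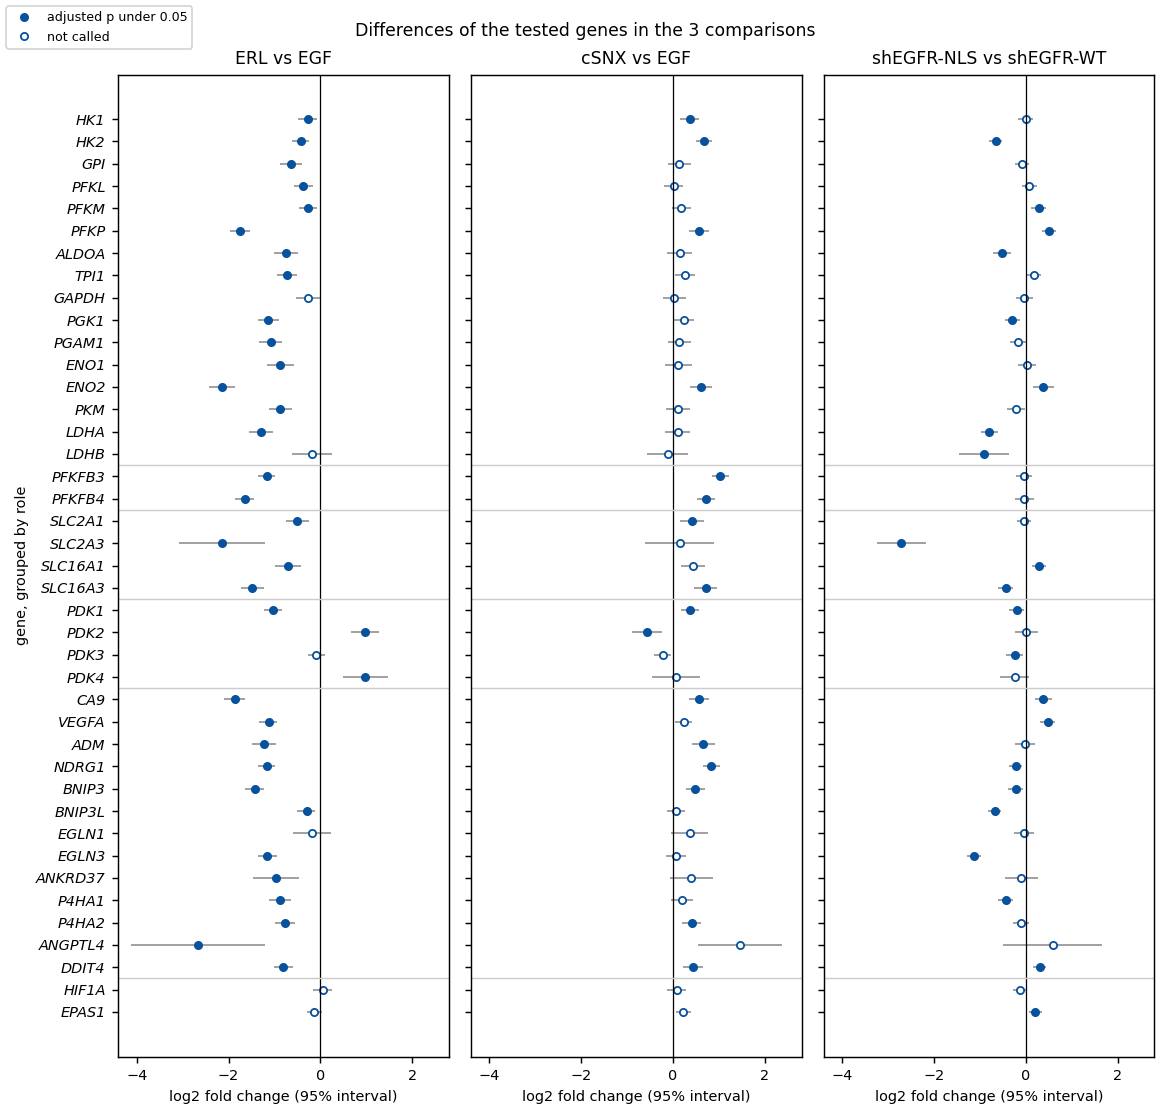
Log2 fold change (x axis) of the 41 tested genes (rows, by role) with erlotinib, with cSNX and in the shEGFR-NLS line, with 95% intervals (lines); filled points were called at an adjusted p under 0.05. With erlotinib 33 filled points lie left of 0 and 2 right of it, with cSNX 15 right and 1 left, and in the line 14 left and 8 right.

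Set directly against each other, cSNX and ERL differed for 38 of the 41 genes, 36 higher in cSNX and 2 lower, where 56.1% of all genes were called. Of all 15738 genes tested, 4336 were called higher in cSNX and 4488 lower. The median difference was 1.14, against -0.01 over all genes. ENO2 was 6.75-fold higher in cSNX than in ERL (2.75, SE 0.13, adjusted p = 8.23e-11), CA9 5.39-fold (2.43, SE 0.11, adjusted p = 6.12e-11), PFKFB4 5.17-fold (2.37, SE 0.10, adjusted p = 2.86e-11) and PFKFB3 4.61-fold (2.20, SE 0.09, adjusted p = 1.69e-11). PDK2 (-1.54, SE 0.15, adjusted p = 4.21e-07) and PDK4 (-0.92, SE 0.23, adjusted p = 0.00273) were lower in cSNX. The 3 genes not called were LDHB, PDK3 and HIF1A. HIF1A differed by 0.03 (95% interval -0.18 to 0.24), and was called with GC and length offsets (0.20, adjusted p = 0.0126). Of the calls, GAPDH was lost without ERL replicate 2 (0.143) or 3 (0.155) or cSNX replicate 1 (0.131) or 2 (0.0968), with at least 10 counts in every library (0.0596) and with GC and length offsets (0.0523), EGLN1 without ERL replicate 2 (0.0998) or 3 (0.0667) or cSNX replicate 1 (0.071), and PFKL with GC and length offsets (0.186).

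Across the experiments, 12 genes were called lower both with erlotinib and in the shEGFR-NLS line: HK2, ALDOA, PGK1, LDHA, SLC2A3, SLC16A3, PDK1, NDRG1, BNIP3, BNIP3L, EGLN3 and P4HA1. Another 7 were lower with erlotinib and higher in the line: PFKM, PFKP, ENO2, SLC16A1, CA9, VEGFA and DDIT4. Of the 15216 genes tested in both, 4.57% were lower in both and 6.22% were lower with erlotinib and higher in the line. The test of the difference between the 2 effects, in 1 fit of all 15 libraries, called 31 of the 41 genes, beside 44.7% of all genes. Of the 31, 28 had the higher value in the line. Of all 16524 genes tested, 3736 were called with the higher value in the line and 3658 with the lower. For EGLN3 the effects differed by 0.05 (95% interval -0.21 to 0.31), and for SLC2A3 by -0.53 (95% interval -1.74 to 0.67), a wide interval. LDHA fell less in the line than with erlotinib, by 0.52 on the log2 scale (adjusted p = 0.0144). The 3 genes with the lower value in the line were PDK2, PDK4 and BNIP3L (-0.36, SE 0.11, adjusted p = 0.0137). Of these 31 calls, SLC2A1 was lost without shEGFR-NLS replicate 1 (0.0563), ANKRD37 without ERL replicate 2 (0.0551), and GPI (0.0887), PFKL (0.299), SLC2A1 (0.182) and BNIP3L (0.0553) with GC and length offsets. HK2 was called with those offsets (-0.29, adjusted p = 0.00498), and LDHB without shEGFR-NLS replicate 2 (-1.03, adjusted p = 0.0208).

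Between the line effect and the cSNX effect, 19 of the 41 genes differed, beside 23.1% of all genes. Of the 19, 18 had the lower value in the line and PDK2 the higher. Of all 16524 genes tested, 1946 were called with the lower value in the line and 1873 with the higher. PFKP, ENO2, CA9 and DDIT4 were called higher both with cSNX and in the line, and their effects differed by -0.05 (95% interval -0.33 to 0.23), -0.22 (-0.56 to 0.11), -0.17 (-0.48 to 0.14) and -0.12 (-0.37 to 0.14), none called. HK2, SLC16A3, PDK1, NDRG1 and BNIP3 were higher with cSNX and lower in the line, and each of these differences was called. These genes were picked by opposite calls in the same libraries, so the called differences add no separate support. Of all 15216 genes tested in both, 0.690% were higher in both and 1.54% were higher with cSNX and lower in the line. The size of the difference was -2.84 for SLC2A3 (adjusted p = 5.35e-05), -1.31 for HK2 (adjusted p = 4.37e-09) and -1.06 for PFKFB3 (adjusted p = 5.79e-07). The calls of HK1, SLC2A1 and PDK2 did not hold: HK1 was lost without EGF replicate 1 (0.115) or 3 (0.112), cSNX replicate 1 (0.102) or 2 (0.0647), shEGFR-NLS replicate 2 (0.121) or 3 (0.0751) or any 1 shEGFR-WT replicate (0.0621 to 0.105), and with no filter on low counts (0.0552). SLC2A1 was lost without EGF replicate 1 (0.11) or 3 (0.0959), cSNX replicate 1 (0.105), shEGFR-NLS replicate 2 (0.0998) or 3 (0.0809) or any 1 shEGFR-WT replicate (0.0566 to 0.0772), and PDK2 without EGF replicate 1 (0.0582) or 2 (0.0741), cSNX replicate 3 (0.103), shEGFR-NLS replicate 1 (0.0573) or 2 (0.083) or shEGFR-WT replicate 1 (0.0704) or 2 (0.0774). Calls were gained by PGAM1 (0.0428) and PKM (0.0444) without EGF replicate 2, by PGAM1 with GC and length offsets (0.0268) and by LDHB without shEGFR-NLS replicate 2 (0.031). The drug cells and the lines were separate experiments, and whether their EGF treatment was alike is not known. The lines also carried the shRNA, IPTG and GFP-tagged EGFR, with lower EGFR levels (1339.3 and 1725.4 CPM against 4730.1 in EGF). Differences between the experiments cannot be told apart from the effects compared. EGFR was also called higher in shEGFR-NLS than in shEGFR-WT (0.37, adjusted p = 0.00367), which cannot be told apart from the line effect.

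The 4 further lists set the members beside their pathway. Of 44 other glycolysis and pyruvate genes, 35 were tested in the drug experiment: erlotinib gave 6 higher and 8 lower, with a median of 0.02, cSNX gave 2 higher and 2 lower, and the line 3 higher and 15 lower of 36. These are 40.0%, 11.4% and 50.0% called, beside 44.0%, 6.07% and 41.4% of all genes. With erlotinib the lactate dehydrogenase D gene LDHD (1.39, SE 0.35, adjusted p = 0.00405) and the insulin-regulated glucose transporter SLC2A4 (1.21, SE 0.36, adjusted p = 0.0125) rose and the transporter SLC2A6 (-1.17, SE 0.14, adjusted p = 6.32e-06) fell. In the line FBP1, the gluconeogenic fructose bisphosphatase, fell (-1.38, SE 0.12, adjusted p = 2.35e-07) and ENO3, the muscle enolase, rose (1.33, SE 0.26, adjusted p = 0.000663). Of 36 other HIF pathway and hypoxia genes, 35 were tested: erlotinib gave 5 higher and 19 lower, with a median of -0.49, cSNX 8 higher and 0 lower, and the line 10 higher and 10 lower, or 68.6%, 22.9% and 57.1% called. The 5 that changed most with erlotinib were PPFIA4 (-2.34, SE 0.45, adjusted p = 0.00165), NDUFA4L2 (2.02, SE 0.37, adjusted p = 0.000378), TMEM45A (-1.70, SE 0.14, adjusted p = 9.35e-08), MAFF (-1.67, SE 0.13, adjusted p = 4.38e-08) and STC1 (-1.63, SE 0.10, adjusted p = 7.99e-09). NDUFA4L2, a mitochondrial HIF target, was the one of these 5 that rose. In the line LOX, the collagen cross-linking enzyme (1.56, SE 0.14, adjusted p = 1.69e-07), and the hormone gene STC2 (1.46, SE 0.09, adjusted p = 1.75e-09) rose, and PPP1R3C, a glycogen-targeting subunit, fell (-1.38, SE 0.08, adjusted p = 8.14e-10).

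Of 20 PPAR and fatty acid oxidation genes, 14 were tested; erlotinib gave 2 higher and 1 lower, cSNX 0 higher and 1 lower, and the line 2 higher and 5 lower, none with a change over 1. The shares called were 21.4%, 7.14% and 50.0%, beside the same 44.0%, 6.07% and 41.4% of all genes. Of 9 glucose sensing and transcriptional regulators, 8 were tested in the drug experiment and 7 in the line. Erlotinib gave 0 higher and 1 lower, cSNX 1 higher and 0 lower, and the line 1 higher and 2 lower, or 12.5%, 12.5% and 42.9% called. FOXO1, a forkhead factor of the insulin pathway, was lower in the line (-1.16, SE 0.11, adjusted p = 3.66e-07).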

How the data were processed

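RNA of MDA-MB-468 cells was measured in 15 libraries. Per the study's methods, the authors trimmed reads with TrimGalore 0.6.7, aligned them to GRCh38 with STAR 2.7.9a and counted read pairs per gene with featureCounts, without strand; the annotation release is not given in the sources used here. The deposited values are raw counts for 61552 genes, with no normalization. Groups came from the sample titles. Symbols were matched by Ensembl identifier to GENCODE 44.

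Counts were tested in R 4.3.3 with edgeR 4.0.16 (TMM, filterByExpr by group, robust quasi-likelihood, Benjamini-Hochberg over all genes): the 9 drug libraries in 1 fit, the 6 line libraries in another, and all 15 for differences between experiments. The study tested with DESeq2, which was run here (1.42.0) as an alternative. Scripts were tested on simulated data. Total counts were 22915676 to 35900649 per library, and no replicate pair agreed within sampling noise (lowest chi-square per degree of freedom 2.6). Intervals on summed counts cover counting error only.

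The members and lists were chosen with earlier results of these data known. Values by library are given for members called with an absolute log2 fold change over 1 in any of the 3 main comparisons, members called in all 3, and HIF1A and EPAS1; of other pathway lists, at most the 5 largest such calls per list and comparison are named, and PDK2, PDK4 and the isoenzyme shares were added after their values were seen. Alternatives were another normalization, DESeq2, 2 other count filters, a replicate block, a threshold of 0.01, other sets of libraries, each library left out, CPM without TMM, and, chosen after seeing the data, offsets for GC content and length.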

Additional observations from a re-analysis of the deposited data

Results flagged for a closer look

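The effect of the shEGFR-NLS line and that of a drug went in opposite directions for 12 pairs of effects. Both effects and their difference were called by edgeR. The pairs were picked by opposite calls in the same libraries, so their called difference adds no separate support. Of the 15216 genes tested in both experiments, 6.22% were called lower with erlotinib and higher in the line. For higher with cSNX and lower in the line the share was 1.54%. These shares count genes whether or not the difference was called. Against erlotinib, the line effect was the higher by 0.56 (log2) for PFKM, 2.28 for PFKP, 2.54 for ENO2, 1.01 for SLC16A1, 2.27 for CA9, 1.62 for VEGFA and 1.13 for DDIT4. Against cSNX, it was the lower, by a difference of -1.31 for HK2, -1.15 for SLC16A3, -0.57 for PDK1, -1.06 for NDRG1 and -0.70 for BNIP3. The separate effects of PFKM, SLC16A1, PDK1, NDRG1 and BNIP3 in the line, of PFKM with erlotinib and of PDK1 and BNIP3 with cSNX lose their calls when single libraries are left out, as given above. The drug cells and the lines were separate experiments, and whether their EGF treatment was alike is not known. Such differences, and the differing EGFR levels given above, cannot be told apart from the effects.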

How the results depend on the processing

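No called gene of the 41 changed sign under any alternative run. Leaving out 1 library at a time gave 33 to 35 genes called with erlotinib, 9 to 16 with cSNX, 14 to 22 in the line, 36 to 38 for cSNX against ERL, and 30 to 32 and 16 to 20 for the line effect against the erlotinib and cSNX effects. The cSNX count was 9 without EGF replicate 1 and 10 without cSNX replicate 2, and the line count 14 without shEGFR-NLS replicate 3; over all genes the cSNX comparison gave 526 to 892 calls, the lowest without cSNX replicate 2, with 531 without EGF replicate 1 and 592 without EGF replicate 3. Other cSNX counts over all genes, 956 as reported, were 1444 with all 15 libraries, 1632 with GC and length offsets and 470 at a threshold of 0.01, where 10 of the 41 genes passed; at that threshold the line and cSNX effects differed for 2359 genes in place of 3819. The cause was not tested.

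Values that changed sign were small and not called. HIF1A with erlotinib was -0.07 with GC and length offsets and ran from -0.036 to 0.148 with single libraries left out; LDHA with cSNX ran from -0.014 to 0.22 and EGLN3 from -0.033 to 0.133. In the line the ranges were -0.118 to 0.028 for PFKFB3, -0.112 to 0.018 for PFKFB4, -0.105 to 0.013 for SLC2A1 and -0.086 to 0.058 for ADM, and the line minus erlotinib difference of EGLN3 ran from -0.024 to 0.097. Without TMM, 179 of 210 group levels moved by less than 1 SD.

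No pairing by replicate number was seen. Correlations of same-numbered libraries, in their deviations from the group mean, ran from -0.2 to 0.248. Differently numbered libraries reached -0.324 (cSNX replicate 3 with EGF replicate 2) and 0.375 (cSNX replicate 1 with EGF replicate 2). With 3 libraries per group these values cannot exclude a pairing. With the replicate number as a block, the 3 main comparisons gave 34, 15 and 21 called genes of the 41 and 6707, 841 and 5766 of all genes; the other 3 gave 38, 31 and 19, and 8643, 7526 and 3922. The block removed the calls of PFKM with erlotinib (adjusted p = 0.0516), PDK2 with cSNX (0.0518) and BNIP3 in the line (0.0515). Low counts limit SLC2A3, ANGPTL4, LDHB, PDK4 and ANKRD37.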
